A study of Mus musculus with 4 samples.

Results

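Messages of the MS4A and LY6 families of surface proteins were followed by symbol and gene identifier in mouse bone-marrow-derived macrophages (BMDM), which are cultured from marrow cells. The 10 genes, of 55536 Ensembl genes measured, are 5 MS4A genes (Ms4a4c, Ms4a6b, Ms4a6c, Ms4a6d and Ms4a7) and 5 LY6 genes (Ly6a, Ly6c1, Ly6c2, Ly6e and Ly6i). The list was given by name and was chosen with earlier results of these data known. The data are 4 polyA RNA-seq libraries of 1 group, primary macrophages of strain C57BL/6J, numbered 1 to 4 by the labels as separate biological samples with the same donor record; age and sex are given as not collected. Every library is of cells exposed to Lipid A, the part of lipopolysaccharide that TLR4 recognises, at 100 ng/mL for 12 h, then kept without it for 12 h and exposed again at 100 ng/mL for 60 min, according to the descriptions. The source names and characteristics say lipoprotein A instead and leave out the 12 h without it. Cells that were not exposed are not analysed here, so none of the levels can be read as a response to the agent. Because nothing says that the 4 libraries came from separate animals, p-values measure the spread between these samples.

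MS4A proteins cross the membrane several times and sit beside immune receptors; the founding members are CD20 of B cells (Ms4a1) and the beta chain of the high-affinity IgE receptor (Ms4a2), while other members mark monocytes and macrophages. LY6 proteins are small, disulfide-rich domains held on the outer membrane by a glycosylphosphatidylinositol (GPI) anchor. Ly6a is Sca-1, the antigen used to sort mouse haematopoietic stem cells and also found on endothelium, Ly6c1 and Ly6c2 make the Ly6C antigen that marks inflammatory monocytes, and Ly6e affects the entry of several viruses. In mice Ly6a, Ly6c2 and Ly6e are known as interferon-inducible genes.

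Replicates 1, 2, 3 and 4 had 26613690, 23167140, 41453162 and 34946569 expected counts over all genes, so that a count of 0 allows up to 3 counts, or 0.0724 to 0.129 CPM (counts scaled to library size), for counting error only. Replicate 1 stood apart in its share of ribosomal RNA, 7.29% of TPM (a level scaled for transcript length and library size) against 1.51% to 2.91% in the others. Of 17 genes of macrophage identity, 16 had at least 1 TPM in each library, led by Lyz2 (lysozyme), Ctss (cathepsin S) and Cd68 at 11353 ± 953, 4581 ± 427 and 2391 ± 166 TPM (SD, n = 4), and Vsig4 did not. Below, a gene is detected when it has at least 1 TPM in each library.

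Nearly all of the message of the 10 genes came from 7 of them, at mean levels of 392 to 3828 TPM. Together the 10 genes held 1.16% ± 0.045 of all TPM (SD, n = 4), with a sum of 7294 ± 1088 TPM for the 5 MS4A genes and 4276 ± 689 TPM for the 5 LY6 genes. Of the 10 genes 9 were detected. Ly6c1 was not.

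**Figure D1:**
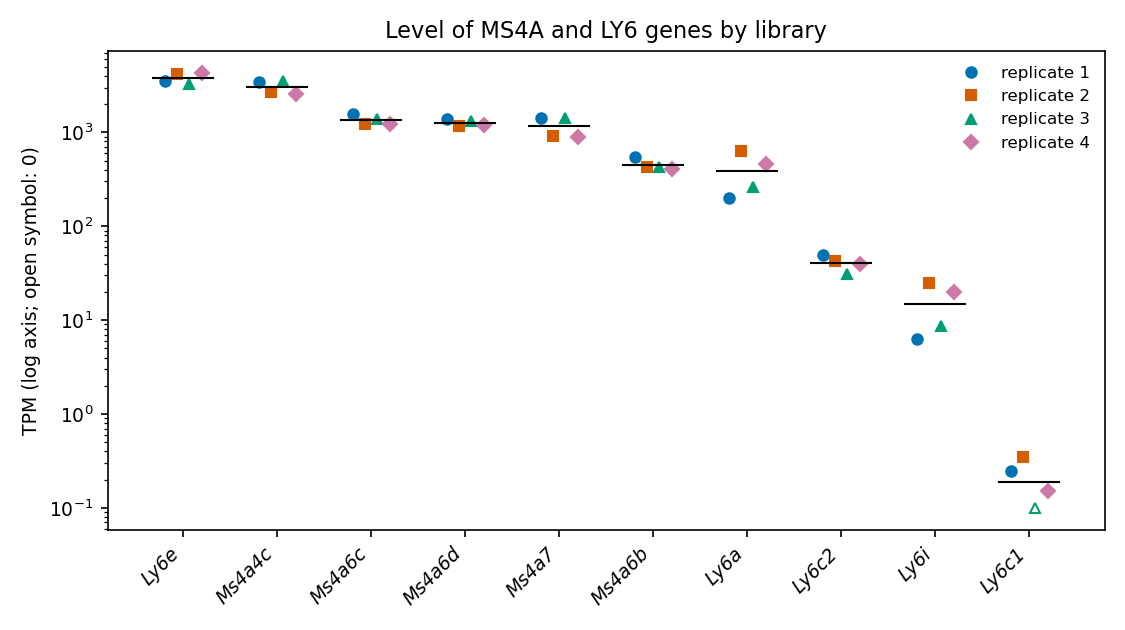
TPM on a log axis of each of the 10 genes in each of the 4 libraries (points) with the mean over libraries (black line), genes ordered by mean; the open symbol is a value of 0. Points of Ly6a and Ly6i spread most among the 9 detected genes, and Ly6c1 lies below 1 TPM in each library.

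Ly6e was the highest of the LY6 genes. Ly6e (ENSMUSG00000022587.14, mm10 chromosome 15, 74955051 to 74959905, plus strand) had 3504, 4166, 3301 and 4343 TPM in replicates 1 to 4, a mean of 3828 ± 504 TPM that ranks 25 among all genes. The extremes lay 1.32-fold apart, with replicates 2 and 4 the higher ones. Ly6a, which encodes Sca-1 (ENSMUSG00000075602.10, chromosome 15, 74994877 to 74998031, minus strand), had 201, 641, 263 and 464 TPM, a mean of 392 ± 200.2. Its values in replicates 2 and 4 were the higher ones, and the highest was 3.19-fold the lowest. Ly6e exceeded Ly6a in each library, by 17.4-, 6.50-, 12.5- and 9.35-fold in TPM.

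Ly6c2, which makes Ly6C (ENSMUSG00000022584.14, chromosome 15, 75108158 to 75111970, minus strand), was lower, with 48.9, 42.9, 31.2 and 39.4 TPM, a mean of 40.6 ± 7.38. Ly6i, a close relative of Ly6a (ENSMUSG00000022586.11, chromosome 15, 74979534 to 74983430, minus strand), had 6.30, 24.9, 8.60 and 19.8 TPM, a mean of 14.9 ± 8.88, with replicates 2 and 4 again the higher ones. Ly6c1 (ENSMUSG00000079018.10, chromosome 15, 75044018 to 75048830, minus strand) had 0.25, 0.35, 0 and 0.15 TPM from 1.94, 3.14, 0 and 2.03 expected counts. These values are near or below the level of 3 counts that a count of 0 allows.

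Ly6c1 and Ly6c2 are close copies, whose coding sequences differ at 9 of 393 positions (97.7% identical). The first 120 coding bases hold 6 of those differences, in capitals here, and are shown because fragments of the coding part are told apart only by such bases; both are GENCODE M21 sequences, GRCm38 chromosome 15, minus strand.
Ly6c2: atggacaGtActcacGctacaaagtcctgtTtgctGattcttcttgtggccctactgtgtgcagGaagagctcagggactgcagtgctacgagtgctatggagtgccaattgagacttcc
Ly6c1: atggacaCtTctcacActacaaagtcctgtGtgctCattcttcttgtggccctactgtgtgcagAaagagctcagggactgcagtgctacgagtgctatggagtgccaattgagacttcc

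Over all transcripts of the gene, 46.8% of the 31-base words of Ly6c1 also occur in other genes, most of them in Ly6c2, and 23.8% of those of Ly6c2 do; the other words are found in no other gene. With rounded counts Ly6c1 held 7 of 1808 counts of the pair, or 0.387% (exact Clopper-Pearson 95% interval 0.156% to 0.796%). By library it held 2 of 488, 3 of 358, 0 of 466 and 2 of 496 counts. By the same exact interval, 0 of 466 allows a share of up to 0.79%. The intervals cover counting error only. The deposited posterior standard deviation of either count, a measure of how firmly reads were assigned, was at most 0.71 counts. The second quantification, made from the reads without those alignments, gave Ly6c1 0.0628, 0.479, 0.141 and 0.387 TPM against 35.0, 26.5, 28.0 and 32.5 TPM for Ly6c2. Both quantifications thus left the point value of Ly6c1 below 1 TPM in each library. The deposited TPM intervals of the first were less firm. Their upper bounds for Ly6c1 were 2.91, 3.36, 1.71 and 2.18 TPM in replicates 1 to 4, each above 1 TPM. Their lower bounds, 0.544, 0.721, 0.257 and 0.404 TPM, lay above the point values.

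Each of the pair has 2 annotated starts, and the windows from 250 bases before to 50 bases after them were 38.2% to 62.3% identical in alignment over the 4 pairs of starts, less alike than the coding sequences. The pair most alike is shown because the 2 levels differ so far, from RefSeq (GRCm38.p6, minus strand, written in the direction of transcription), with capitals for the letters of a PU.1-type motif, GAGGAAGT. PU.1 (Spi1) is a transcription factor of the macrophage lineage and had 367 ± 33.7 TPM here (SD, n = 4).
Ly6c2, chr15:75111922-75112221: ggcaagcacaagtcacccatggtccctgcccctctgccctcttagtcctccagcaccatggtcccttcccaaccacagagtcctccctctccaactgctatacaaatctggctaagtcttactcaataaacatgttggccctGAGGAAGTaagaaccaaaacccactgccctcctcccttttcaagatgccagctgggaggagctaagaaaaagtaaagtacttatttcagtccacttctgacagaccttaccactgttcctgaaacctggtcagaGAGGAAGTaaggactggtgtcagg
Ly6c1, chr15:75048788-75049087: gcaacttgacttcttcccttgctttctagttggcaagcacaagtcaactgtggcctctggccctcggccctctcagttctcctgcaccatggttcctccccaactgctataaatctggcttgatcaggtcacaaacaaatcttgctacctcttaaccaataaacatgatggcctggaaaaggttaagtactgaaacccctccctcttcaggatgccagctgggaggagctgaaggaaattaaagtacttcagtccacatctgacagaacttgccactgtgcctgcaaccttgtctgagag

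Both windows were searched on both strands. The Ly6c2 window holds the motif 2 times, from base -108 and from base 26 relative to the start (from base -142 and base -8 relative to its other start), and this Ly6c1 window does not hold it. A second annotated start of Ly6c1 (window 75048614 to 75048913) has 1 match from base -127, so the letters are present near Ly6c1 too. The Ly6c1 window shown ends inside that same match, so its lack of the motif depends on where the window was cut. The bases next to that match are nearly those next to the downstream match of Ly6c2. Of 32851 mouse promoter windows of that length 3.20% hold the motif. The windows of Ms4a4c, Ms4a6b, Ms4a6c and Ms4a7, genes with far more TPM than Ly6c2, hold none, so the motif does not follow level. No match was found in any of the 9 windows available for 6 of the 10 genes to the short consensus of the interferon-stimulated response element (GAAA and, after any 2 bases, GAAA again, in 3.44% of all windows) or the NF-kB consensus (in 4.51%). The same windows held no match to the interferon gamma-activated site (TTC NNN GAA with N for any base, in 8.30% of all windows). Ly6a, Ly6e, Ly6i and Ms4a6d had no window and were not searched. With matches this rare over all windows, finding none in 9 windows, some of them overlapping, does not set the searched genes apart. A match is a description of letters and not of binding.

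The MS4A genes were all abundant. Ms4a4c (ENSMUSG00000024675.19, chromosome 19, 11404770 to 11427246, plus strand), a gene inducible by interferon in mice, had 3473, 2705, 3502 and 2559 TPM in replicates 1 to 4, a mean of 3059.7 ± 498 TPM. Replicates 1 and 3 were the higher ones, 1.37-fold between the extremes. Ms4a6c (ENSMUSG00000079419.4, 11469366 to 11482192, plus strand) had 1560.05, 1220.4, 1404 and 1214 TPM, a mean of 1349.6 ± 166. Ms4a6d (ENSMUSG00000024679.10, 11586604 to 11604849, minus strand) had 1380.3, 1184, 1309 and 1204 TPM, a mean of 1269 ± 92.1, with a coefficient of variation of 7.25%, the lowest of the 10 genes. Both had their highest value in replicate 1.

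Ms4a7, which marks macrophages (ENSMUSG00000024672.11, 11321039 to 11336146, minus strand), had 1432, 921, 1413 and 886 TPM, a mean of 1163 ± 300.0. Its values formed a higher pair in replicates 1 and 3 and a lower pair in replicates 2 and 4, opposite to Ly6a. Ms4a6b (ENSMUSG00000024677.13, 11516512 to 11531256, plus strand), a gene also known in T cells, had 553, 425, 425 and 406 TPM, a mean of 452 ± 67.9. Replicate 1 was high there and the other 3 libraries lay close together.

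The 3 Ms4a6 genes are close paralogs: coding sequences were 79.8% identical between Ms4a6b and Ms4a6d, 74.4% between Ms4a6b and Ms4a6c and 67.2% between Ms4a6c and Ms4a6d. The first 90 coding bases of each (GENCODE M21, GRCm38 chromosome 19) are shown because reads over the shared stretches could be divided among the 3 genes; capitals mark the 19 positions where they are not all the same.
Ms4a6b: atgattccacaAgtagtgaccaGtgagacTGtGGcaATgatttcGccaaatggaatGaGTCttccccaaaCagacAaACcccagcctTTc
Ms4a6c: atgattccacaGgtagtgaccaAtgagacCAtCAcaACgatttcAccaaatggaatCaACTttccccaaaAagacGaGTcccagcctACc
Ms4a6d: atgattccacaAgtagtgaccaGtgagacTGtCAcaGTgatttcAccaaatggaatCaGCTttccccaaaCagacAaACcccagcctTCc

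Of the 31-base words of Ms4a6b and Ms4a6d 7.90% and 8.11% occur in another gene, and the deposited posterior standard deviation of their counts was at most 0.030 counts. For Ms4a6c the share was 58.1%, most of it from BE692007, an annotated non-coding transcript on the opposite strand (11470166 to 11484578) that overlaps the gene. BE692007 was listed at 25.9, 23.1, 32.6 and 19.3 TPM. The posterior standard deviation of the Ms4a6c count reached 29.1 counts, with 24873 to 49693 counts per library. Whether counting used strand is not given in the sources used here, so reads from Ms4a6c and BE692007 may not be told apart.

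The promoter windows of Ms4a6b and Ms4a6c share an unbroken run of 48 bases, in capitals, from base -118 in Ms4a6b and base -49 in Ms4a6c (RefSeq, GRCm38.p6, plus strand). The whole windows were 51.2% identical in alignment.
Ms4a6b, chr19:11518309-11518608: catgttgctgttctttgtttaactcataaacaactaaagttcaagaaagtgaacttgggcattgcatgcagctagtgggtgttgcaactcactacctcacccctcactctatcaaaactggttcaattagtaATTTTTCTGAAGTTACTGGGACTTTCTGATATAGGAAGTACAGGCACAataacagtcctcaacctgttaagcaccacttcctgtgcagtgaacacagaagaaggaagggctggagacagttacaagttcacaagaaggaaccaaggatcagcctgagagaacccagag
Ms4a6c, chr19:11469118-11469417: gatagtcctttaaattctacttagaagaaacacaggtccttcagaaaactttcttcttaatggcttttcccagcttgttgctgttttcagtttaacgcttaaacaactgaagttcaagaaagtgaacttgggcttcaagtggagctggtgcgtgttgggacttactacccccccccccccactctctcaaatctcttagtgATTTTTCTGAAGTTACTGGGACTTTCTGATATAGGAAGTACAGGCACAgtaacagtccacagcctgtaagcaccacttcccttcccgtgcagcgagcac

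In order of mean TPM the 10 genes were Ly6e, Ms4a4c, Ms4a6c, Ms4a6d, Ms4a7, Ms4a6b, Ly6a, Ly6c2, Ly6i and Ly6c1. Neighbours were compared by the per-library difference of log2(TPM + 0.1), with an exact sign-flip test, two-sided, of its 4 values; the smallest possible p, 0.13, is 0.188 after adjustment over the 9 pairs, so no pair could pass. Ranges did not overlap for Ms4a4c over Ms4a6c (1.17 ± 0.10 log2 units), Ms4a7 over Ms4a6b (1.34 ± 0.29), Ly6a over Ly6c2 (3.14 ± 0.81), Ly6c2 over Ly6i (1.64 ± 0.98) and Ly6i over Ly6c1 (5.69 ± 1.03), each in 4 of 4 libraries at p = 0.13 by that exact test. The size of the last one depends on the pseudocount, since Ly6c1 is near 0. Ly6e exceeded Ms4a4c in 3 of 4 libraries, by 0.33 ± 0.43 log2 units (exact p = 0.375). Ms4a6c exceeded Ms4a6d in 4 of 4 libraries but by only 0.08 ± 0.07 log2 units with overlapping ranges. Ms4a6d over Ms4a7 (0.16 ± 0.28) and Ms4a6b over Ly6a (0.34 ± 0.92) held in 2 of 4 libraries each, and their order did not exceed the spread.

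Ms4a4c stood above Ms4a6c only per length. Its TPM was 2.26 ± 0.16 times that of Ms4a6c (SD, n = 4), whereas its expected count was 0.912 times that of Ms4a6c, and the log2 difference of CPM was -0.14 ± 0.14. Ms4a4c-203, an annotated coding transcript of 361 bases, held 69.6% ± 4.83 of the gene's TPM but 15.2% of its counts. The longer Ms4a4c-201, of 1723 bases, held 29.7% ± 4.52 of TPM and 84.2% of counts. The place of Ms4a4c thus changes from 2 by TPM to 3 by CPM, and no gene other than these 2 changes its place.

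**Figure D2:**
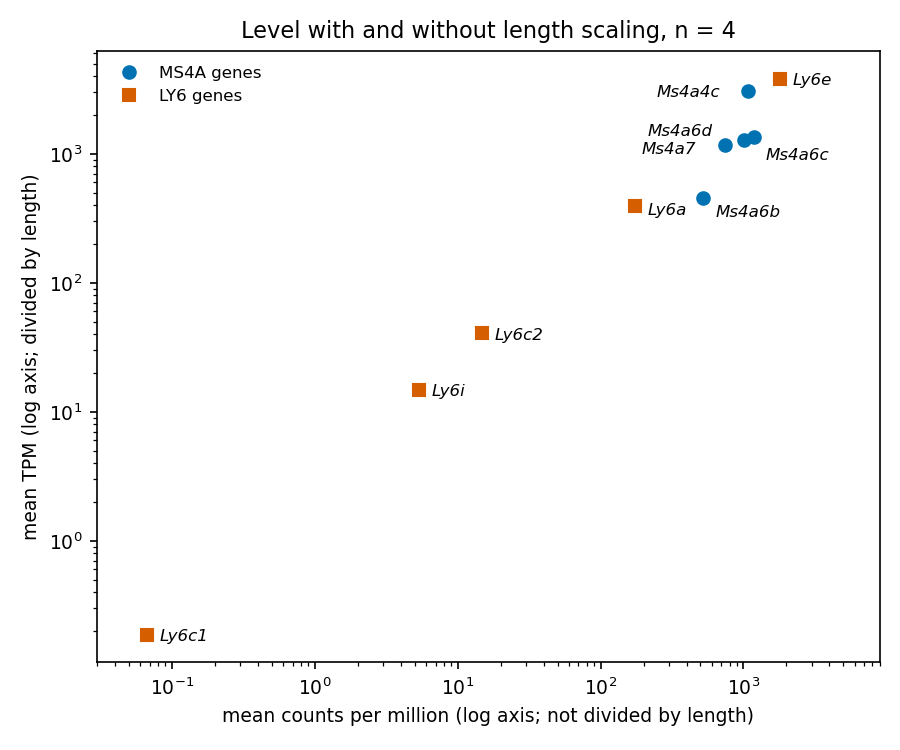
Mean TPM against mean CPM of the 10 genes, both on log axes, for MS4A genes (circles) and LY6 genes (squares), n = 4 libraries. Ms4a4c, at 1079 CPM and 3059.7 TPM, lies above the other MS4A genes, while Ms4a6c is at 1177 CPM and 1349.6 TPM.

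Ly6a was the one gene of the 2 families whose counts varied between libraries by more than genes of its abundance do. The test set each gene's deviance between libraries against edgeR's dispersion trend, adjusted by Benjamini-Hochberg over 11679 genes, of which 305 (2.61%) passed; 9 of the 10 genes could be tested and 1 of 9 passed. Normalised for library composition, the 4 libraries had 97.7, 271, 113 and 205 CPM of Ly6a, in the order of their numbers (edgeR adjusted p = 0.0148). Replicates 2 and 4 were high and replicates 1 and 3 low. Leaving out replicate 1, 2 or 3 ended that call, at edgeR adjusted p = 0.0656, 0.442 and 0.0718, and so did a common dispersion (0.0855); leaving out replicate 4 did not (0.00916).

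Ly6i had the widest spread of log2 CPM among the 9 genes, an SD of 0.93, with 2.57, 9.44, 2.65 and 6.37 CPM. It did not pass (edgeR adjusted p = 0.0635), although it did with the dispersion trend of DESeq2 (0.0194) or a common dispersion (0.00492). Ly6a and Ly6i, 86.3% identical in coding sequence, were high and low in the same libraries, and Ly6a exceeded Ly6i in each, by 31.9-, 25.8-, 30.6- and 23.5-fold in TPM. Ly6i has 106 of its 31-base words in common with Ly6a, of 1156, and the deposited posterior standard deviation of both counts was 0.

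**Figure D3:**
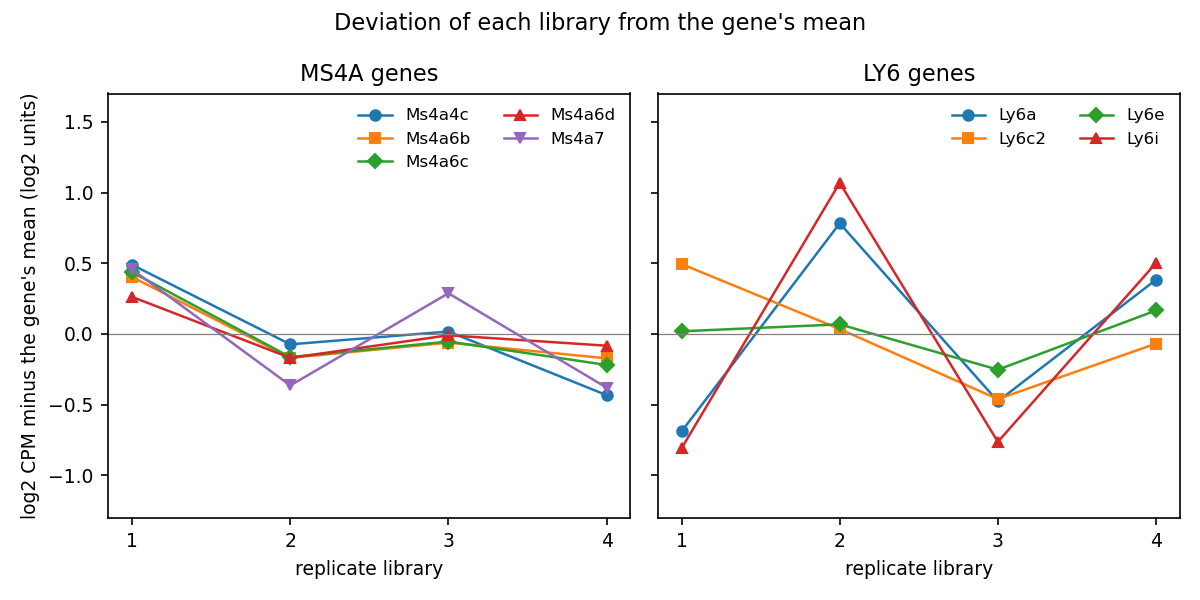
Log2 CPM of each tested gene minus its mean over the 4 libraries, for the 5 MS4A genes (left) and the 4 detected LY6 genes (right), joined across replicate libraries for legibility only, since replicates have no order. Ly6a and Ly6i lie above their means in replicates 2 and 4, and Ms4a7 above its mean in replicates 1 and 3.

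Among MS4A genes Ms4a7 had the widest spread, with 994, 563, 885 and 557 CPM (SD 0.43 log2 units, edgeR adjusted p = 0.894). The other 4 had SDs of 0.19 to 0.38 log2 units, and their highest CPM was in replicate 1 each time. In normalised log2 CPM replicate 1 was the farthest library, above the others, in 6 of the 9 genes, against 15.02% of all tested genes. That count depends on the scale. In TPM Ms4a4c was highest in replicate 3, at 3502 against 3473 in replicate 1, and Ms4a7 had 1432 and 1413 in replicates 1 and 3. The MS4A genes among the 6 also lie in 1 locus. The median SD over the 9 genes was 0.38 log2 units, against 0.23 over all 11679 genes.

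The genes with the pattern most like that of Ly6a, by the root mean square difference of log2 CPM centred over the 4 libraries, were Celsr3 (an adhesion receptor with cadherin repeats), at 0.04 log2 units, AC122306.1, at 0.05, and Ugt1a6a (a glucuronosyltransferase), at 0.07. All 3 were scarce: Celsr3 had 1.26, 3.44, 1.36 and 2.58 CPM in replicates 1 to 4, and Ugt1a6a 2.49, 6.08, 2.58 and 4.80 CPM. With 4 libraries such a match is a description, and many genes can come this close.

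Since Sca-1 is also found on progenitors and endothelium, markers of both were read beside Ly6a. In bulk RNA fewer cells of a type and less RNA per cell cannot be told apart. Of 7 endothelial markers 2 were detected, Kdr (a VEGF receptor) and Pecam1, and the summed list had 12.1, 30.1, 9.59 and 16.5 TPM in replicates 1 to 4, highest where Ly6a was highest. Kdr alone carried that order, with 5.30, 24.6, 4.15 and 13.4 TPM (edgeR adjusted p = 2.28e-09); the other 6 markers summed to 6.76, 5.50, 5.44 and 3.06 TPM, Tek had no count in any library, and Tie1 had none but in replicate 3. Of 7 progenitor markers 1 was detected, Procr (the protein C receptor), at 8.81, 15.7, 6.29 and 9.83 TPM, while Cd34 stayed at or below 0.470 TPM. The part of such cells in the Ly6a values was not tested.

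The alarmins S100a9 and S100a8, from the list of neutrophil markers, were highest in replicates 1 and 3, as Ms4a7 was, and the receptor Csf3r was not. The summed level of the list was 216, 119.6, 216 and 112 TPM in replicates 1 to 4, with these 3 of 10 detected. Csf3r had 83.0, 107, 110.3 and 98.9 TPM, lowest in replicate 1. S100a9 had 71.4, 6.77, 61.7 and 5.10 TPM and S100a8 49.3, 5.58, 34.0 and 5.69 TPM (edgeR adjusted p = 4.76e-11 and 4.96e-06). Without Csf3r the list summed to 133, 13.1, 106 and 12.7 TPM. The granule genes Ngp, at 7.96, 0.40, 7.34 and 0.56 TPM, and Ltf, at 1.48, 0.03, 1.67 and 0.08 TPM, were also highest in replicates 1 and 3. Neither was detected or could be tested for variation. Mpo, below 1 TPM, was highest in replicate 4. Retnlg had no count in any library and Cxcr2 at most 0.160 TPM. The part of neutrophils in the Ms4a7 values was not tested.

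Ly6c2 was read beside monocyte markers. Of 10 classical monocyte markers 6 were detected, among them Plac8 and Mgst1 at 92.4 ± 18.9 and 83.9 ± 14.3 TPM (SD, n = 4), and Ccr2, the receptor by which these monocytes leave the marrow, had 7.78, 3.17, 5.92 and 2.96 TPM. Their summed level was 277, 277, 257 and 216 TPM. Of 10 nonclassical markers 8 were detected, led by the integrin Itgal, Fabp4 and Pou2f2 at 93.1 ± 28.4, 88.0 ± 25.5 and 45.3 ± 11.4 TPM, and Cx3cr1 was not. Nr4a1, the receptor on which nonclassical monocytes depend, had 2.23, 3.63, 5.51 and 32.1 TPM (edgeR adjusted p = 2.14e-17), high in replicate 4. None of the 9 detected genes but Ly6e had its highest value there. The nonclassical list, Nr4a1 included, summed to 294, 298, 239 and 222 TPM in replicates 1 to 4, lowest in replicate 4. Every library was of cells exposed again to the agent. The parts of that exposure and of nonclassical monocytes in the Nr4a1 values were not tested.

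Other members of both families were read from longer lists. Of 15 other MS4A family genes 5 were detected: Ms4a4a, a macrophage surface protein, at 456, 291, 496 and 219.85 TPM, Tmem176b and Tmem176a, related proteins of intracellular membranes, at 87.9 ± 33.9 and 53.6 ± 23.7 TPM (SD, n = 4), Ms4a14 at 60.4 ± 17.8 TPM and Ms4a4b at 6.41 ± 1.72 TPM. Ms4a4a was highest in replicates 1 and 3, as Ms4a7 was. Ms4a1, which encodes CD20, had 0.02 to 0.05 TPM and Ms4a2, the IgE receptor chain, 0 to 0.290 TPM. None of the 5 tested passed edgeR's test of variation or that with the DESeq2 trend, and 3 had an unadjusted p under 0.05.

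Of 30 other genes of the LY6 and urokinase receptor (uPAR) family that were found, 2 were detected, Plaur, the urokinase receptor, at 14.3 ± 5.70 TPM, and Cd59a, an inhibitor of complement lysis, at 4.99 ± 0.51 TPM. Ly6g, the neutrophil antigen, had no count in any library, and 20 of the 30 had none. Neither of the 2 passed edgeR's test of variation or that with the DESeq2 trend, and 1 had an unadjusted p under 0.05. Ly6m and Ly6g2 were not found by symbol.

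In the annotated MS4A locus from Ms4a7 to Ms4a6d (chromosome 19, 11321039 to 11604849) 8 of 9 protein-coding genes were detected. Beside the 5 genes and Ms4a4a they were Ms4a4b and Gm8369, with means of 6.41 and 4.50 TPM among neighbours of 366 TPM or more. In the LY6 locus from Ly6e to Ly6c2 (chromosome 15, 74955051 to 75111970) 4 of 5 protein-coding genes were detected, and the fifth was Ly6c1.

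All 26 measured genes of GPI anchor synthesis and attachment, the pathway that LY6 proteins need to reach the surface, were detected. Pgap2, which remodels the lipid of the anchor, had 218 ± 13.8 TPM, Dpm2, a subunit for mannose donor synthesis, 64.8 ± 5.13 and Pigs, of the transamidase, 46.7 ± 3.60 TPM (SD, n = 4), and their summed level was 599.75 to 660.02 TPM. Only Pgap1 of the 26 passed the test of variation, with 6.70, 14.2, 20.3 and 14.6 TPM (edgeR adjusted p = 0.0328), and with the DESeq2 trend none did. Of the 15 genes of interferon signalling all were detected, among them the factors Irf7 at 2323 ± 359.6 and Irf1 at 671 ± 112 TPM. Only Socs1, an inhibitor of that signalling, varied in edgeR, with 9.52, 6.74, 2.28 and 2.04 TPM (adjusted p = 0.000270), and the list summed to 6447, 5849, 5001 and 5564 TPM, an order that Ly6c2 shared and neither Ly6a nor Ly6e did. Clec7a was the variable macrophage identity gene, at 81.3, 37.9, 149.7 and 75.4 TPM (edgeR adjusted p = 8.16e-05).

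Most markers of other cell types were below 1 TPM in at least 1 library. Of 9 T cell markers none was detected, with sums of 0.180 to 1.75 TPM; of 7 B cell markers Cd22 and Cd79b were, at 49.6 ± 11.7 and 3.67 ± 2.04 TPM (SD, n = 4), with sums of 36.1 to 67.3 TPM; of 8 mast cell and basophil markers Hdc was, at 10.2 ± 4.32 TPM; and of 9 dendritic cell markers Tcf4 and Batf3 were, at 32.2 ± 5.35 and 3.63 ± 1.37 TPM, with sums of 31.3 to 46.0 TPM.

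The deposited transcript shares describe which forms carried each gene. Ms4a6d was nearly all Ms4a6d-201, at 99.6% ± 0.291 of the gene's TPM (SD, n = 4). Ms4a7 divided into Ms4a7-203 at 62.7% ± 0.614 and Ms4a7-202 at 34.7% ± 0.488, and Ly6e into Ly6e-215 at 58.9% ± 1.91 and Ly6e-213 at 36.0% ± 1.40. Ly6c2-201 held 83.3% ± 6.33 of Ly6c2. Ms4a6c and Ms4a6b each had a transcript annotated as a retained intron, which does not encode the whole protein. Ms4a6c-202, of 639 bases, held 25.7% ± 5.80 of the TPM of its gene but 7.63% of its counts, and Ms4a6b-202, of 429 bases, held 7.27% ± 2.60 of TPM and 0.747% of counts. TPM divides by length, so a short transcript takes a larger share of TPM than of counts.

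Transcript shares differed between 2 pairs of libraries that a technical record also sets apart. The deposited records list 4 read files each for replicates 3 and 4, against 6 each for replicates 1 and 2. Depth differed between the same pairs, with 41453162 and 34946569 expected counts against 26613690 and 23167140. Mitochondrial genes held 4.8% and 4.0% of TPM in replicates 3 and 4, against 1.9% and 2.8%. Read files, depth and mitochondrial share cannot be told apart in these libraries. Among the 9 detected genes 20 transcripts had a mean share of 5% to 95%, none of them of Ms4a6d. Of these 20, 14 had shares that did not overlap between the 2 pairs of libraries, against 44.5% of 18981 such transcripts in all. With means at least 5 percentage points apart it was 9 of 20, against 32.8%. Shares of 1 gene sum to 100% and so are not separate results. With 2 libraries in each, an exact permutation test cannot give a two-sided p below 0.333, so none is given.

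Of the 14 transcripts apart in the first quantification 9 were apart in the same direction in the second: 3 of Ly6a and both of Ly6i, Ms4a6c-201 and Ms4a6c-202, and Ms4a6b-201 and Ms4a6b-202. Ly6a-201 held 2.91% and 1.45% in replicates 3 and 4, against 15.3% and 11.9% in replicates 1 and 2, and Ly6a-204 held 68.2% and 68.1% against 60.5% and 62.4%. The second quantification gave Ly6a-201 at 0 or nearly 0 TPM in replicates 3 and 4, against 12.8 and 40.8 TPM in replicates 1 and 2. The retained-intron Ms4a6c-202 held 30.6% and 30.8% in replicates 3 and 4, against 19.5% and 22.1% in replicates 1 and 2, and in the second quantification 29.2% and 29.7% against 23.8% and 26.3%. Ly6i-202 held 78.3% and 77.1% against 66.5% and 58.5%, and in the second quantification 71.5% and 70.6% against 60.8% and 57.1%.

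Ms4a6b-201 held 59.8% and 66.3% in replicates 3 and 4, against 55.9% and 59.7% in replicates 1 and 2, and in the second quantification 59.7% and 67.5% against 45.7% and 49.6%. Ms4a6b-202 held 5.21% and 5.03% against 10.4% and 8.48%, a gap that was wider in the second quantification, at 7.55% and 6.00% against 33.8% and 29.8%. That transcript alone had 32.1 and 22.3 TPM in replicates 3 and 4 there, against 184 and 104 TPM in replicates 1 and 2.

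The other 5 of the 14 did not repeat in the second quantification. Ly6a-203, Ly6e-215, Ly6e-213 and Ms4a4c-203 overlapped there; Ms4a4c-203 held 73.3% and 74.2% in replicates 3 and 4, against 65.6% and 65.2% in replicates 1 and 2, but 65.6% and 68.0% against 66.3% and 66.5% in the second. Ms4a4c-201 was apart in the opposite direction, at 26.2% and 25.3% against 33.4% and 33.7% in the first and 34.1% and 31.7% against 30.0% and 30.7% in the second. In 3 transcripts the pairs were apart in the second alone. Ms4a7-203 held 67.5% and 66.3% there in replicates 3 and 4, against 54.6% and 53.4% in replicates 1 and 2, Ms4a7-202 29.2% and 31.3% against 42.9% and 42.9%, and Ms4a6b-205 28.6% and 25.3% against 18.6% and 18.2%. The parts of read files, depth and mitochondrial share in these transcript shares were not tested.

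**Figure D4:**
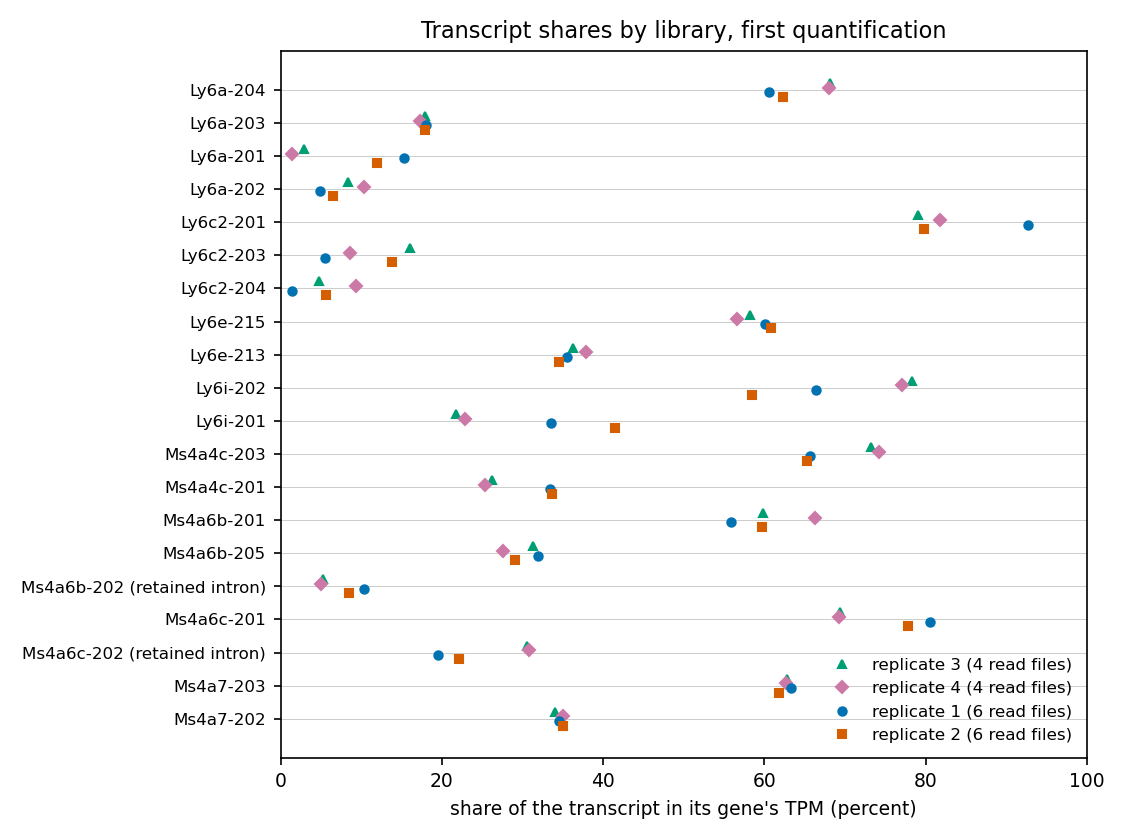
Share of each transcript in its gene's TPM, in percent, in each library. Shown are the 20 transcripts with a mean share of 5% to 95% among the 9 detected genes, none of them of Ms4a6d. Replicates 3 and 4 have 4 read files and replicates 1 and 2 have 6. Ly6a-201, at 2.91% and 1.45% against 15.3% and 11.9%, and Ms4a6c-202 show the 2 pairs of libraries apart, while Ms4a7-203 and Ms4a7-202 do not in this first quantification.

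Gene levels were not called by that split. In edgeR's quasi-likelihood test of replicates 3 and 4 against replicates 1 and 2, 0 of 9 genes passed, as did 0 of 12667 genes in all (0%), with 897 of all genes at an unadjusted p under 0.05. DESeq2 called 103 genes and 0 of the 9. The 9 genes had a median of -0.26 log2 units, against 0.03 over all genes, from -0.53 ± 0.24 for Ly6c2 (SE; edgeR adjusted p = 0.719) to -0.07 ± 0.26 for Ly6e. Ly6c2 was the only one whose CPM did not overlap, 10.6 and 13.9 CPM in replicates 3 and 4 against 20.5 and 14.9 CPM in replicates 1 and 2, or 1 of 9 against 38.8% of 11679 genes. Without replicate 1 the log2 difference turned positive for Ms4a6b, Ms4a6c, Ms4a6d and Ms4a7.

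Both quantifications gave the same order of the 10 genes, with lower TPM for most of them in the second. None of 9 genes differed by the set limit of at least 1 log2 unit with an adjusted p up to 0.05 in limma, against 10.9% of 12299 genes in either direction and 3.22% lower in the second. At any size 8 of 9 were called lower in the second at an adjusted p up to 0.05, against 30.7% of all genes, from -0.32 ± 0.12 log2 units for Ms4a6c (SE; limma adjusted p = 0.0347) to -0.52 ± 0.11 for Ms4a4c (4.55e-05). Ms4a6b was at -0.11 ± 0.14 (limma adjusted p = 0.482). That count was 1 of 9 without replicate 1, 2 without replicate 2 or without replicate 4, 1 with no variance trend and 0 with no filter on low values; Ms4a4c was in each of these sets but the last. With scaled counts in place of TPM it was 5, and the difference of Ms4a4c was -0.06 log2 units. The median over all genes was itself -0.29, with 84.0% of genes lower in the second, and the median of the 9 genes was -0.39.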

How the data were processed

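The 4 libraries were mapped to 1 group and to replicate numbers from the labels. For each library the authors deposited a gene-level and a transcript-level table (first quantification) and another transcript-level table (second quantification). Per the deposited records the first comes from reads aligned to transcripts and the second directly from reads, on mm10 with GENCODE M21. The programs are not given in the sources used here. The expected and estimated counts in the deposited tables are not normalised, per the file headers. The deposited TPM values were scaled by the authors per effective length and to the same sum in every library. How much of a gene's TPM each transcript holds was deposited as a percent. The posterior standard deviations of counts are also the authors' values.

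The 10 genes and all lists were chosen with earlier results of these data known. Other genes were named by rule. The rule took genes detected in the longer family lists and the 3 highest of every other list. It also took list genes called variable and the 3 genes most like a variable member. Any further gene (Ccr2, Cx3cr1, Spi1, Cd34, Vsig4, Ngp, Ltf, Mpo and markers at or near 0) was chosen after its values were seen. Some list genes that the rule names are not reported here, although list counts and sums include them. A pseudocount of 0.1 was added to TPM before log2. Counts were rounded for edgeR 4.0.16 (filterByExpr, TMM) and DESeq2 1.42.0; the common biological coefficient of variation was 22.4%. Variation was tested by the deviance against edgeR's trended dispersion with 3 degrees of freedom. For the read files edgeR's quasi-likelihood test set 2 libraries against 2. Quantifications were compared with limma 3.58.1 on the log2 difference, second minus first, for 12299 genes with a mean of at least 1 TPM in either. All were adjusted over all genes tested, in R 4.3.3. The fits were also run on simulated data, with a lower size limit for the call between quantifications than the one used here. Those results are not reported here. Other steps used Python 3.11.15, numpy 2.4.6, pandas 2.3.3, scipy 1.17.1 and Biopython 1.88. Coding sequences came from GENCODE M21 and promoter windows from a table of RefSeq windows in which 6 of the 10 genes were matched; the other 4 were not analysed here.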

Additional observations from a re-analysis of the deposited data

Results flagged for a closer look

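In 66 sets of 4 values (levels of the 10 genes, shares of their leading transcripts and levels of genes that the naming rule takes from the lists) each library was compared with the others by the gap to its nearest neighbour over the whole range. The gap exceeded Dixon's 95% critical value of 4 values in 3 of them, and chance flags about 1 in 20 such groups. Ms4a6b had 553 TPM in replicate 1 against 406 to 425 TPM in the other 3 libraries, a gap of 0.865 of its range. Nr4a1 had 32.1 TPM in replicate 4 against 2.23 to 5.51 TPM in the others, a gap of 0.890. Trac, a T cell receptor chain, had 0.410 TPM in replicate 1 against 0 to 0.05 TPM in the others, a gap of 0.878 at a level below 1 TPM.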

How the results depend on the processing

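Counts that answer a comparison stayed within 1.5 times under 62 alternatives and moved further under 17. Of single-gene values, 384 kept their direction and side of the threshold (tests) or lay within 1 SD (levels and shares), 9 moved by over 1 SD, 13 reversed, 2 gained and 4 lost a call. With the DESeq2 dispersion trend 2 of the genes were variable, and leaving out each replicate gave 0 to 1. Over all genes the variable count was 135 without replicate 1, with a range of 135 to 219 over the 4 such fits. The count differing between quantifications was 2145 with no filter, which tests more genes, and 651 with scaled counts. The count of the 9 genes lower in the second at any size, 8, was 0 with no filter, 1 with no trend, 5 with scaled counts and 1 to 7 when each replicate was left out; the single-gene values do not count these as lost, since the limit of 1 log2 unit was not met before. The count for the read files was 103 with DESeq2, 35 with no filter and 0 to 13 when each replicate was left out, the lone library of a pair being assumed to vary like the others; no member was called in any. With CPM, an alternative chosen after seeing the data, Ms4a4c minus Ms4a6c was -0.137 log2 units. With scaled counts Ly6i was 0.0920 log2 units higher in the second quantification. Leaving out each replicate moved Ms4a6b minus Ly6a between -0.0315 (without replicate 1) and 0.653, and it moved the read-file difference across 0 for 7 genes: from -0.524 to 0.0452 for Ms4a6b, -0.577 to 0.0222 for Ms4a6c, -0.313 to 0.116 for Ms4a6d and -0.478 to 0.345 for Ms4a7, each positive without replicate 1 (Ms4a7 also without replicate 4, at 0.155), and from -0.768 to 0.701 for Ly6a, -0.325 to 0.129 for Ly6e and -1.20 to 0.802 for Ly6i, each positive without replicate 3 (Ly6a and Ly6i also without replicate 2). None of these was called. The causes were not tested. No paired analysis was possible because there is 1 group.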
